A study of Rattus norvegicus with 12 samples.

Results

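Interferon-stimulated genes are the genes that cells transcribe when they sense foreign RNA or receive an interferon signal. A list of 43 of them, chosen by symbol, was followed through the RNA of rat PAC1 cells in which the RNA-binding protein RBPMS, RBFOX2 or QKI had been depleted. All 43 were among the 33294 genes of the count table. In all, 42 were among the 18438 genes with enough counts to test, and the exception was Ifit1, with 0 to 8 counts in a library. The list was divided by role into 11 sensors, 12 genes of the signalling pathway and 20 effectors. Adar, the gene of an enzyme that edits the cell's own RNA, was placed with the sensors.

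Double-stranded RNA in the cytosol is bound by sensors such as the helicases encoded by Ifih1 and Dhx58, the kinase encoded by Eif2ak2 and the oligoadenylate synthetases of the Oas family. Sensing starts the production of type I interferon, whose receptor acts through Janus kinases on a complex that includes STAT2 and IRF9, and this complex binds the interferon-stimulated response element (ISRE) in the promoters of its targets. Several of the sensors and signalling proteins are themselves products of such targets, and short double-stranded RNA delivered by transfection can raise these genes without any viral infection.

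PAC1 is a line of smooth muscle cells from the rat pulmonary artery, and whether the cells used came from 1 clone is not given in the sources used here. The study describes its experiment with RBPMS, RBFOX2 and QKI knockdown as made in PAC1 cells cultured toward a differentiated state. It reports these cells as less differentiated than those of its other sequencing experiment. There were 4 groups of 3 libraries: a control group given a negative control siRNA named C2, and a group each in which RBPMS, RBFOX2 or QKI was targeted by its own siRNA. Per the labels, each well took 90 pmol of siRNA by reverse transfection, a repeat transfection came after 24 h and the cells were collected 48 h after that; the study's text describes longer intervals. No untransfected cells were analysed here, so the effect of transfection itself on these genes could not be measured, and each knockdown was read against cells that had also taken up an siRNA. The labels do not say whether the 3 libraries of a group came from separate cultures, although the study describes its experiments as biologically replicated, and the p-values measure the spread between these libraries.

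The sense strands of the 4 siRNAs, as the study lists them, are shown because an siRNA is itself a double-stranded RNA and each group received a different one.

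C2: aagguccggcucccccaaaug

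RBPMS: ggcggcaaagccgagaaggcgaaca

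RBFOX2: gcaaugguucagccuuuua

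QK: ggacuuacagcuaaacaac

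The strands of the C2 and RBPMS siRNAs were 21 and 25 nucleotides long with 61.9% and 64.0% G or C, and those of the RBFOX2 and QK siRNAs were both 19 nucleotides long with 42.1% G or C. Any chemical modification is not given in the sources used here. The depleted protein and the siRNA differed together between groups, so their parts in a difference cannot be told apart.

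Libraries held 110595399 to 151665474 counts, and levels are given as CPM, the counts per 1000000 counts of the library after scaling for composition. Each siRNA lowered its target: Rbpms stood at 39.0 to 43.7 CPM in the control libraries and 6.97 to 7.54 CPM after its knockdown, Rbfox2 at 151.5 to 159 CPM and 36.2 to 37.9 CPM, and Qk at 229 to 242 CPM and 26.0 to 27.3 CPM. The groups did not differ in the RNA of 1 target alone: the log2 fold change of Rbpms was -0.81 after RBFOX2 knockdown (adjusted p = 2.1e-09) and -0.49 after QKI knockdown (adjusted p = 9.32e-07), and that of Qk was -0.42 after RBFOX2 knockdown (adjusted p = 1.7e-08). Summed over 9 smooth muscle markers, levels were 2120 to 2190 CPM in the control libraries, 1080 to 1190 CPM after RBPMS knockdown, 837 to 936 CPM after RBFOX2 knockdown and 1460 to 1550 CPM after QKI knockdown. Acta2, Tagln and Myl9 carried most of these sums, and some of the other markers were higher: Myh11 went from 6.35 to 6.72 CPM in the control libraries to 12.8 to 13.7 CPM after RBFOX2 knockdown, and Myocd from 20.8 to 23.2 CPM to 37.4 to 38.9 CPM after QKI knockdown. Summed macrophage markers were at 37.9 to 39.6, 52.6 to 60.1, 53.3 to 54.5 and 43.8 to 44.8 CPM in the same order, nearly all of it Cd14 in the control libraries, whereas Tyrobp was at 0 and Ptprc and Adgre1 at most at 0.0296 and 0.0269 CPM in every library. After QKI knockdown Cd14, at 37.8 to 39.2 CPM, was close to its control range of 36.3 to 38.2 CPM, whereas Csf1r went from 0.367 to 0.457 CPM in the control libraries to 3.30 to 3.97 CPM and Cd68 from 0.956 to 1.18 CPM to 1.92 to 2.09 CPM. The 6 lymphocyte markers summed to at most 0.826 CPM in any library and the 6 endothelial markers to 5.22 to 10.8 CPM. The epithelial markers summed to 29.5 to 31.7 CPM in the control libraries and 72 to 73.9 CPM after RBFOX2 knockdown, nearly all of it Krt8 with its partner Krt18 at most at 0.0752 CPM. The part of these shifts in the results was not tested. In bulk RNA, fewer cells expressing a gene and less of its RNA per cell cannot be told apart.

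Depletion of RBFOX2 went with a broad rise of the interferon-stimulated genes. A gene was called changed where the adjusted p of edgeR's quasi-likelihood test was under 0.05 and the log2 fold change was above 1 in size. By that call, 14 of the 42 members tested rose after RBFOX2 knockdown and 0 fell, where 6.96% of all genes tested rose and 4.73% fell. By the adjusted p alone 31 members were higher, 3 were lower and 8 did not pass, against 30.1% of all genes higher and 30.1% lower. The median log2 fold change of the members was 0.55, beside 0.015 over all genes tested. The list was chosen with earlier results of these data known, so these shares describe it and are not an independent test. With any 1 library left out, 12 to 17 members were changed, and without RBFOX2 knockdown replicate 1 the count was 12.

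Depletion of RBPMS gave no such shift of the list. Here 3 members rose (Eif2ak2, Oasl and Ifit3) and 0 fell, where 5.16% of all genes rose and 4.5% fell, and the median log2 fold change was 0.01, beside 0.01 over all genes. By the adjusted p alone 13 members were higher and 15 were lower, which is to be read against 30.4% of all genes higher and 29% lower. The count of 3 depended on single libraries: it was 5 without control replicate 2, 6 without RBPMS knockdown replicate 1 and 5 without RBPMS knockdown replicate 2, as genes near the fold threshold crossed it. Without control replicate 3, Oasl (log2 fold change 0.85) and Ifit3 (0.99) missed the threshold, and Oas1b (1.07) and Mx2 (1.03) passed it.

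After depletion of QKI the counts of members called lay near or below the shares over all genes. In these libraries 2 members rose (Usp18 and Zbp1) and 3 fell (Oasl2, Oas2 and Oas3), where 8.28% of all genes rose and 9.24% fell, with a median of -0.05 beside 0.01 over all genes. By the adjusted p alone 11 were higher and 15 were lower, against 32.9% and 34% of all genes. Zbp1, Oas2 and Oas3 were all under 1 CPM on average, and the count of 5 fell to 3 without control replicate 1, to 1 without control replicate 3, to 3 without QKI knockdown replicate 2 and to 3 without QKI knockdown replicate 3. With the 39 members of at least 1 CPM on average, the changed genes were 3 higher after RBPMS knockdown, 12 higher after RBFOX2 knockdown, and 1 higher and 1 lower after QKI knockdown. The 3 comparisons share the control libraries.

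The libraries of RBFOX2 knockdown did not move equally. The median over the 42 members of the log2 CPM minus the mean log2 CPM of the control libraries was 0.75 in replicate 1, 0.47 in replicate 2 and 0.29 in replicate 3, whereas the control, RBPMS knockdown and QKI knockdown libraries lay between -0.20 and 0.07. Replicate 1 was the highest of its group for 36 of the 42 members, where it was highest for 33.9% of all genes tested, and replicate 3 was the lowest for 35 of them, where it was lowest for 33.2% of all genes. Rbfox2 itself was at 37.8, 36.2 and 37.9 CPM in these libraries. Other groups were uneven too. QKI knockdown replicate 3 was the lowest of its group for 31 members, against 35.6% of all genes, and replicate 2 the highest for 27, against 37.2%. RBPMS knockdown replicate 1 was the lowest of its group for 25 members, against 33.9% of all genes, and replicate 3 the highest for 22, against 27.8%. What set these libraries apart was not tested.

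**Figure D1:**
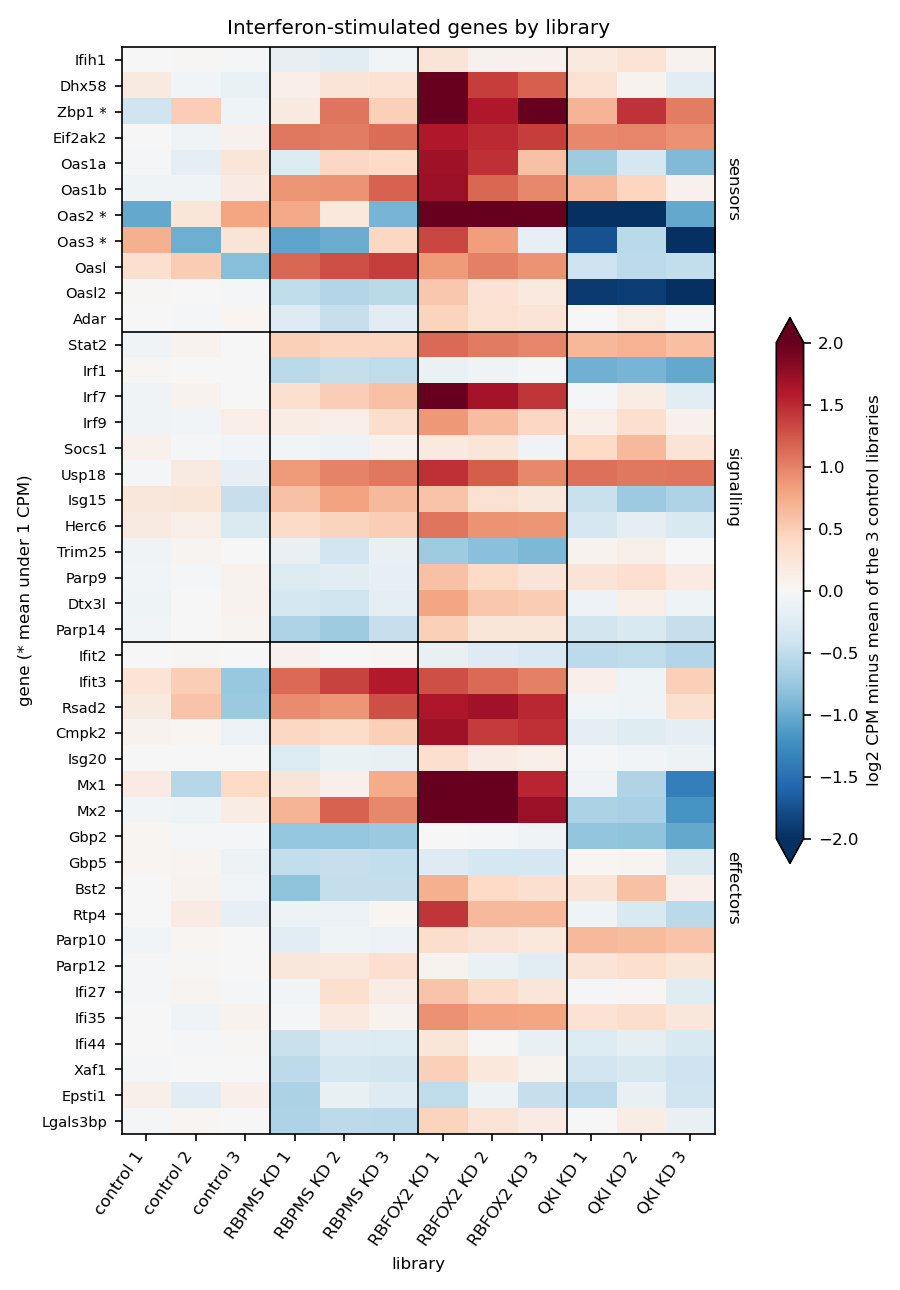
Heat map of the 42 members tested (rows, in blocks of sensors, signalling genes and effectors) in the 12 libraries (columns, in their 4 groups), coloured by log2 CPM (with a prior count of 2) minus the mean of the 3 control libraries, with the scale ending at -2 and 2 and asterisks on the members under 1 CPM on average. The RBFOX2 knockdown columns are red for most members, most strongly in replicate 1, where the median was 0.75, and the QKI knockdown columns hold both red and blue members.

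Among the sensors, 6 of 11 rose after RBFOX2 knockdown, with a median log2 fold change of 1.30, while 2 rose after RBPMS knockdown, and 1 rose and 3 fell after QKI knockdown. Over all genes the shares were 6.96% higher after RBFOX2 knockdown, 5.16% higher after RBPMS knockdown, and 8.28% higher and 9.24% lower after QKI knockdown. Of the 4 sensors called after QKI knockdown, Oas2, Oas3 and Zbp1 were under 1 CPM on average and their calls were lost when single libraries were left out. Oas2 and Zbp1 were also among the 6 sensors that rose after RBFOX2 knockdown. Eif2ak2 encodes PKR, the kinase that halts translation once it binds double-stranded RNA. It was at 31.6, 30.2 and 33.6 CPM in the control libraries, 66.1, 64.2 and 68.6 CPM after RBPMS knockdown, 96.3, 89.4 and 82.9 CPM after RBFOX2 knockdown and 61.5, 62.8 and 60.0 CPM after QKI knockdown. Every knockdown library lay above every control library, and the RBFOX2 knockdown libraries lay above the rest. Log2 fold changes against control were 1.06 ± 0.05 (SE, adjusted p = 2.04e-11), 1.49 ± 0.05 (adjusted p = 1.72e-13) and 0.95 ± 0.05 (adjusted p = 3.26e-11) in that order. RBFOX2 knockdown exceeded RBPMS knockdown by 0.43 ± 0.05 on the log2 scale (adjusted p = 1.38e-06), and QKI and RBPMS knockdown differed by -0.11 ± 0.05 (adjusted p = 0.0719).

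Dhx58 encodes LGP2, a helicase that binds RNA ends and tunes signalling by its relatives. It was at 2.27, 1.93 and 1.82 CPM in the control libraries, 2.20, 2.39 and 2.47 CPM after RBPMS knockdown, 7.97, 5.26 and 4.58 CPM after RBFOX2 knockdown and 2.46, 2.10 and 1.72 CPM after QKI knockdown. Only the RBFOX2 knockdown libraries stood clear of the control range, with a log2 fold change of 1.57 ± 0.17 (adjusted p = 4.71e-07), beside 0.23 ± 0.18 (adjusted p = 0.291) for RBPMS knockdown and 0.07 ± 0.18 (adjusted p = 0.764) for QKI knockdown. Ifih1, which encodes the helicase MDA5, was at 18.7 to 26.6 CPM in every library and passed the test after QKI knockdown (0.18 ± 0.06, adjusted p = 0.0149), a call lost without QKI knockdown replicate 2 (adjusted p = 0.0878). After RBPMS knockdown (-0.15, adjusted p = 0.0511) and RBFOX2 knockdown (0.14, adjusted p = 0.0527) it just missed the threshold, and with all 3 libraries of each group kept the values passed under 8 and 5 of the alternative settings (adjusted p of 0.0119 to 0.0475 and 0.0105 to 0.0493). Its RBPMS value passed without RBPMS knockdown replicate 3 (-0.20, adjusted p = 0.0208) and its RBFOX2 value without RBFOX2 knockdown replicate 3 (0.17, adjusted p = 0.0483). Ddx58, which encodes the third helicase of that family, RIG-I, was not on the list; it was at 26.3 to 27.6 CPM in the control libraries and had log2 fold changes of -0.36 ± 0.07, 0.15 ± 0.07 and -0.33 ± 0.07, the second of which did not pass the test (adjusted p = 0.0875).

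The oligoadenylate synthetases bind double-stranded RNA and, in the catalytic members, make the messenger that activates RNase L. Oas1a was at 1.19, 1.07 and 1.45 CPM in the control libraries, 1.01, 1.65 and 1.62 CPM after RBPMS knockdown, 4.03, 3.42 and 1.85 CPM after RBFOX2 knockdown and 0.744, 0.957 and 0.661 CPM after QKI knockdown. The RBFOX2 knockdown libraries were the highest in the set and the QKI knockdown libraries the lowest, without overlap with the control libraries. The log2 fold changes were 1.32 ± 0.24 after RBFOX2 knockdown (adjusted p = 0.000126) and -0.66 ± 0.27 after QKI knockdown (adjusted p = 0.0382), and the second was lost when control replicate 1 (adjusted p = 0.0596), control replicate 3 (0.132), QKI knockdown replicate 1 (0.0974) or QKI knockdown replicate 3 (0.127) was left out. For RBPMS knockdown the value was 0.21 ± 0.25 (adjusted p = 0.495).

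Oas1b, its neighbour in the family, was at 2.29, 2.32 and 2.75 CPM in the control libraries, 4.51, 4.58 and 5.53 CPM after RBPMS knockdown, 8.01, 5.41 and 4.78 CPM after RBFOX2 knockdown and 3.85, 3.31 and 2.59 CPM after QKI knockdown. Here the RBPMS and RBFOX2 knockdown libraries both lay above the control range, and QKI knockdown overlapped it. Log2 fold changes were 0.99 ± 0.17 (adjusted p = 0.000101), 1.30 ± 0.17 (adjusted p = 3.89e-06) and 0.41 ± 0.18 (adjusted p = 0.0532). The RBPMS value passed the fold threshold without control replicate 3 (1.07), RBPMS knockdown replicate 1 (1.04) or RBPMS knockdown replicate 2 (1.03), and the QKI value passed the test without control replicate 3 (adjusted p = 0.0421) or QKI knockdown replicate 3 (0.0165). With all 3 libraries of each group kept, the QKI value also passed under several alternative settings (adjusted p of 0.00177 with no filter on low counts to 0.048 with RLE size factors). RBFOX2 and RBPMS knockdown differed by 0.32 ± 0.16 (adjusted p = 0.109). How the counting split reads shared by Oas1a and Oas1b, or by the other close relatives named here, is not given in the sources used here, so the values of single paralogues are uncertain.

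Oasl2 and Oasl encode synthetase-like proteins. Oasl2 was at 10.1, 9.87 and 9.83 CPM in the control libraries, 6.97, 6.65 and 6.84 CPM after RBPMS knockdown, 14.4, 12.1 and 11.4 CPM after RBFOX2 knockdown and 2.63, 2.69 and 1.89 CPM after QKI knockdown. No 2 groups overlapped. It fell after QKI knockdown by 2.05 on the log2 scale (SE 0.11, adjusted p = 1.84e-11), the single member of at least 1 CPM to fall past both thresholds in any knockdown, and this call held without each library in turn. After RBPMS knockdown the log2 fold change was -0.54 ± 0.10 (adjusted p = 0.000122) and after RBFOX2 knockdown 0.35 ± 0.09 (adjusted p = 0.00405).

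Oasl was at 7.30, 8.24 and 3.21 CPM in the control libraries, 12.9, 14.2 and 15.2 CPM after RBPMS knockdown, 10.5, 11.7 and 10.8 CPM after RBFOX2 knockdown and 4.34, 4.01 and 4.09 CPM after QKI knockdown. Control replicate 3 was far below the other control libraries and below the QKI knockdown libraries. Log2 fold changes were 1.17 ± 0.20 for RBPMS knockdown (adjusted p = 7.84e-05), 0.81 ± 0.20 for RBFOX2 knockdown (adjusted p = 0.00213) and -0.59 ± 0.21 for QKI knockdown (adjusted p = 0.0223). Without control replicate 3 the RBPMS value was 0.85 (adjusted p = 1.3e-07), under the fold threshold, and without control replicate 2 the RBFOX2 value was 1.07 (adjusted p = 0.000296). The QKI call was lost without control replicate 1 (adjusted p = 0.0954), control replicate 2 (0.184), QKI knockdown replicate 2 (0.0594) or QKI knockdown replicate 3 (0.0556).

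Oas2, Oas3 and Zbp1 were near the limit of detection, and their counts are given in place of folds. Oas2 had 2, 9 and 13 counts in the control libraries, 10, 8 and 2 after RBPMS knockdown, 108, 50 and 44 after RBFOX2 knockdown and 0, 0 and 2 after QKI knockdown. The RBFOX2 knockdown libraries thus held the most and did not overlap with any other group (adjusted p = 0.000158 against control). Zbp1, whose product senses left-handed nucleic acid and can start cell death, had 4, 11 and 6 counts in the control libraries, 6, 16 and 8 after RBPMS knockdown, 51, 25 and 54 after RBFOX2 knockdown (adjusted p = 9.47e-05) and 12, 18 and 14 after QKI knockdown (adjusted p = 0.0458). Oas3 had 28, 9 and 22 counts in the control libraries, 6, 8 and 20 after RBPMS knockdown, 50, 35 and 16 after RBFOX2 knockdown and 4, 10 and 2 after QKI knockdown (adjusted p = 0.0335), with wide spread and overlap between groups. The Zbp1 call after QKI knockdown was lost without control replicate 1 (adjusted p = 0.141), control replicate 3 (0.115), QKI knockdown replicate 2 (0.16) or QKI knockdown replicate 3 (0.0758). The QKI calls of Oas2 and Oas3 were each lost without control replicate 3 (adjusted p of 0.0648 and 0.0699) or QKI knockdown replicate 1 (0.0602 and 0.111), that of Oas2 also without QKI knockdown replicate 2 (0.0503), and that of Oas3 also without control replicate 1 (0.144) or QKI knockdown replicate 3 (0.126).

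Adar encodes the editing enzyme that marks the cell's own double-stranded RNA by turning adenosine into inosine. Its mean level was 70.4 ± 1.46 CPM (SD, n = 3) in the control libraries, 57.0 ± 5.08 CPM after RBPMS knockdown, 89.1 ± 6.13 CPM after RBFOX2 knockdown and 72.1 ± 3.77 CPM after QKI knockdown. The log2 fold changes were -0.31 ± 0.06 (adjusted p = 0.00029), 0.34 ± 0.06 (adjusted p = 9.01e-05) and 0.03 ± 0.06 (adjusted p = 0.641), so that RBPMS and RBFOX2 knockdown lay on opposite sides of the control libraries.

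**Figure D2:**
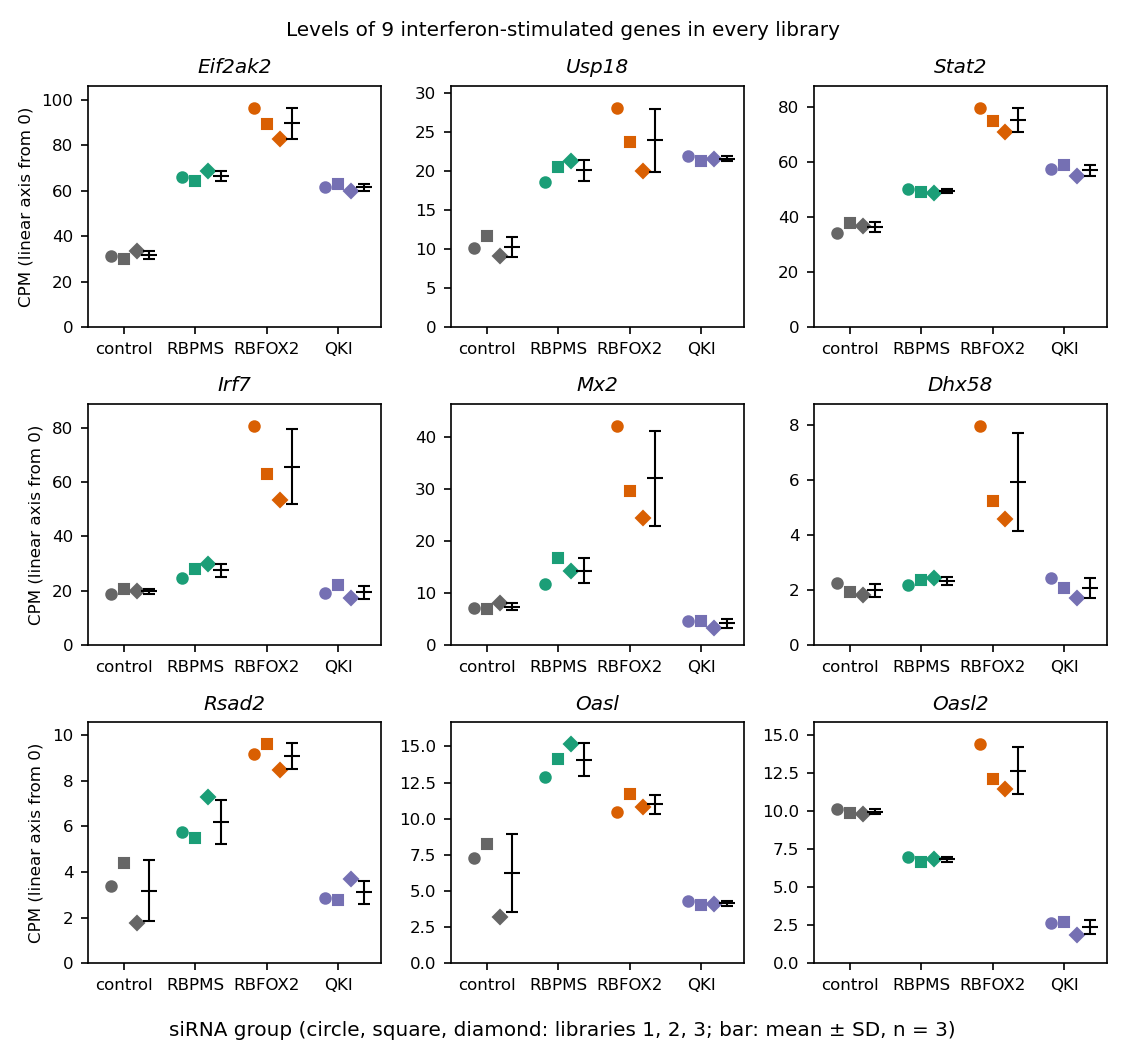
Levels of 9 members in every library on linear CPM axes that start at 0, with circles, squares and diamonds for libraries 1, 2 and 3 of each siRNA group and bars for the mean ± SD of the 3 libraries. All knockdown libraries lie above the control libraries for Eif2ak2, Usp18 and Stat2, only the RBFOX2 knockdown libraries stand far from the control libraries for Irf7 and Dhx58, and Oasl2 is lowest after QKI knockdown, at 2.63, 2.69 and 1.89 CPM.

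Among the 12 signalling genes, 3 rose after RBFOX2 knockdown (Irf7, Usp18 and Stat2), 0 were called changed after RBPMS knockdown and 1 rose after QKI knockdown (Usp18), against the same shares of all genes. Irf7 encodes the transcription factor that amplifies type I interferon production. It was at 19.0, 20.8 and 19.9 CPM in the control libraries, 24.9, 27.9 and 29.7 CPM after RBPMS knockdown, 80.6, 62.9 and 53.5 CPM after RBFOX2 knockdown and 19.4, 22.0 and 17.2 CPM after QKI knockdown. The RBFOX2 knockdown libraries were well apart from the other 9. Log2 fold changes were 0.47 ± 0.12 (adjusted p = 0.00219), 1.72 ± 0.12 (adjusted p = 8.63e-10) and -0.03 ± 0.12 (adjusted p = 0.851) for RBPMS, RBFOX2 and QKI knockdown.

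Usp18 removes ISG15 from proteins and restrains the type I interferon receptor. Its levels were 10.1, 11.6 and 9.12 CPM in the control libraries, 18.6, 20.5 and 21.2 CPM after RBPMS knockdown, 28.1, 23.7 and 20.0 CPM after RBFOX2 knockdown and 21.9, 21.2 and 21.5 CPM after QKI knockdown. All 9 knockdown libraries were above the control libraries and the knockdown groups lay close together, with log2 fold changes of 0.97 ± 0.10 (adjusted p = 2.72e-07), 1.22 ± 0.10 (adjusted p = 1.2e-08) and 1.07 ± 0.10 (adjusted p = 4.81e-08). RBFOX2 knockdown exceeded RBPMS knockdown by 0.25 ± 0.10 (adjusted p = 0.0351), QKI and RBPMS knockdown differed by 0.10 ± 0.10 (adjusted p = 0.392) and QKI and RBFOX2 knockdown by -0.15 ± 0.10 (adjusted p = 0.174). The RBPMS value passed the fold threshold without control replicate 2 (1.06) or RBPMS knockdown replicate 1 (1.02), and the QKI value missed it without control replicate 3 (0.98).

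Stat2 is the subunit that carries the transactivation domain of the interferon-activated complex. It was at 34.5, 38.0 and 36.7 CPM in the control libraries, 50.3, 49.2 and 49.0 CPM after RBPMS knockdown, 79.8, 75.0 and 71.2 CPM after RBFOX2 knockdown and 57.6, 58.9 and 54.9 CPM after QKI knockdown. None of the 4 groups overlapped, in the order control, RBPMS, QKI and RBFOX2. Against control the log2 fold changes were 0.44 ± 0.05 (adjusted p = 2.93e-07), 1.05 ± 0.05 (adjusted p = 3.76e-12) and 0.65 ± 0.05 (adjusted p = 1.21e-09) for RBPMS, RBFOX2 and QKI knockdown, and each step between neighbours in that order passed the test, the smallest being 0.21 ± 0.05 from RBPMS to QKI (adjusted p = 0.000887). Without RBFOX2 knockdown replicate 1 the RBFOX2 value was 0.999, just under the fold threshold. Irf9, the DNA-binding partner in the same complex, was higher only after RBFOX2 knockdown by the adjusted p (0.64 ± 0.10, adjusted p = 1.87e-05), with 0.21 ± 0.10 (adjusted p = 0.0748) after RBPMS knockdown and 0.19 ± 0.10 (adjusted p = 0.1) after QKI knockdown. Both of the latter passed the test without control replicate 3 (adjusted p of 0.035 and 0.045), and the RBPMS value also without RBPMS knockdown replicate 2 (0.0405).

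Irf1, an activator that acts early after interferon gamma, went the other way after RBPMS and QKI knockdown. It was at 59.9, 58.9 and 58.7 CPM in the control libraries, 40.6, 42.7 and 41.5 CPM after RBPMS knockdown, 54.0, 56.6 and 57.6 CPM after RBFOX2 knockdown and 30.3, 31.0 and 29.0 CPM after QKI knockdown. Groups did not overlap. The log2 fold changes were -0.51 ± 0.04 (adjusted p = 4.55e-09), -0.08 ± 0.04 (adjusted p = 0.0884) and -0.97 ± 0.04 (adjusted p = 4.43e-13). Trim25, the ubiquitin ligase that activates RIG-I, fell after RBFOX2 knockdown from 43.5 ± 1.90 to 24.7 ± 1.59 CPM (SD, n = 3), a log2 fold change of -0.82 ± 0.06 (adjusted p = 3.76e-09), the largest decrease of any member in that comparison. After RBPMS knockdown its value was -0.22 ± 0.06 (adjusted p = 0.00428) and after QKI knockdown 0.06 ± 0.06 (adjusted p = 0.362).

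ISG15 is a ubiquitin-like protein attached to other proteins after interferon, and HERC6 is the ligase that attaches it in rodents. Isg15 was at 11.6, 11.8 and 7.24 CPM in the control libraries, 14.9, 17.5 and 15.6 CPM after RBPMS knockdown, 14.8, 12.2 and 11.6 CPM after RBFOX2 knockdown and 7.35, 6.01 and 6.47 CPM after QKI knockdown. The RBPMS knockdown libraries were above the control range, and control replicate 3 sat below its group at the level of QKI knockdown. Log2 fold changes were 0.65 ± 0.14 (adjusted p = 0.000621), 0.34 ± 0.14 (adjusted p = 0.0449) and -0.62 ± 0.14 (adjusted p = 0.00108), and the RBFOX2 call was lost without control replicate 3 (adjusted p = 0.247), RBFOX2 knockdown replicate 1 (0.232) or RBFOX2 knockdown replicate 2 (0.0645). Herc6 rose after RBFOX2 knockdown by 0.95 ± 0.10 on the log2 scale (adjusted p = 2.18e-07), which passed the fold threshold without control replicate 1 (1.03) or control replicate 2 (1.00). Its values were 0.43 ± 0.10 (adjusted p = 0.0014) and -0.29 ± 0.10 (adjusted p = 0.0213) after RBPMS and QKI knockdown, and the QKI call was lost without control replicate 1 (adjusted p = 0.117), control replicate 2 (0.0936), QKI knockdown replicate 1 (0.071) or QKI knockdown replicate 3 (0.0587).

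The ADP-ribosyltransferase genes Parp9 and Parp14, and Dtx3l, which encodes the partner ligase of PARP9, were lower than control after RBPMS knockdown and higher after RBFOX2 knockdown. For Parp14 the mean level was 70.8 ± 2.83 CPM (SD, n = 3) in the control libraries, 47.1 ± 4.14 CPM after RBPMS knockdown, 88.5 ± 8.45 CPM after RBFOX2 knockdown and 54.5 ± 2.92 CPM after QKI knockdown. Its log2 fold changes were -0.59 ± 0.07 (adjusted p = 7.67e-07), 0.32 ± 0.07 (adjusted p = 0.000406) and -0.38 ± 0.07 (adjusted p = 8.38e-05). Dtx3l had -0.32 ± 0.08, 0.62 ± 0.08 and -0.01 ± 0.08, and Parp9 had -0.22 ± 0.07, 0.42 ± 0.07 and 0.26 ± 0.07, each passing the test except Dtx3l after QKI knockdown (adjusted p = 0.883). Socs1, a feedback inhibitor of Janus kinases, was at 2.48 to 4.23 CPM in every library and passed the test only after QKI knockdown (0.45 ± 0.11, adjusted p = 0.00155).

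Of the 19 effectors tested, 5 rose after RBFOX2 knockdown (Mx2, Mx1, Cmpk2, Rsad2 and Ifit3), 1 after RBPMS knockdown (Ifit3) and 0 changed after QKI knockdown. In that last comparison 10 of the 19 passed the adjusted p alone, 4 higher and 6 lower, against 32.9% and 34% of all genes. Over all genes the shares called changed were those given with the sensors. Mx2 and Mx1 encode dynamin-like GTPases that trap incoming viral particles. Mx2 was at 7.15, 6.95 and 8.20 CPM in the control libraries, 11.9, 16.8 and 14.4 CPM after RBPMS knockdown, 42.2, 29.8 and 24.5 CPM after RBFOX2 knockdown and 4.76, 4.71 and 3.27 CPM after QKI knockdown. No groups overlapped, with QKI knockdown below and both other knockdowns above control. It had the largest rise of any member above 1 CPM, 2.11 ± 0.17 on the log2 scale after RBFOX2 knockdown (adjusted p = 9.54e-09), beside 0.95 ± 0.17 (adjusted p = 0.000135) for RBPMS knockdown and -0.81 ± 0.19 (adjusted p = 0.00109) for QKI knockdown. The RBPMS value passed the fold threshold without control replicate 3 (1.03) or RBPMS knockdown replicate 1 (1.07).

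Mx1 was at 0.866, 0.517 and 1.03 CPM in the control libraries, 0.930, 0.828 and 1.30 CPM after RBPMS knockdown, 3.36, 3.15 and 2.24 CPM after RBFOX2 knockdown and 0.736, 0.505 and 0.290 CPM after QKI knockdown. Only the RBFOX2 knockdown libraries were apart from the control libraries (log2 fold change 1.87 ± 0.26, adjusted p = 9e-06). The values of 0.34 ± 0.28 (adjusted p = 0.314) and -0.63 ± 0.30 (adjusted p = 0.0771) for RBPMS and QKI knockdown did not pass the test, though the second did without control replicate 2 (-0.88, adjusted p = 0.017) or QKI knockdown replicate 1 (-1.02, adjusted p = 0.0141).

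Cmpk2 and Rsad2 lie side by side on chromosome 6 and act in antiviral nucleotide metabolism: RSAD2, or viperin, makes a chain-terminating nucleotide. Cmpk2 was at 4.42, 4.30 and 3.88 CPM in the control libraries, 5.56, 5.40 and 5.82 CPM after RBPMS knockdown, 13.6, 11.1 and 11.6 CPM after RBFOX2 knockdown and 3.69, 3.56 and 3.66 CPM after QKI knockdown. Rsad2 was at 3.38, 4.40 and 1.76 CPM, 5.74, 5.51 and 7.28 CPM, 9.16, 9.61 and 8.48 CPM, and 2.87, 2.78 and 3.70 CPM in the same order. Both genes were highest after RBFOX2 knockdown and intermediate after RBPMS knockdown, without overlap with the control libraries. For Cmpk2 the log2 fold changes were 0.41 ± 0.08 (adjusted p = 0.000337), 1.53 ± 0.08 (adjusted p = 3.1e-11) and -0.21 ± 0.08 (adjusted p = 0.0401), and for Rsad2 they were 0.95 ± 0.21 (adjusted p = 0.000833), 1.51 ± 0.20 (adjusted p = 6.05e-06) and -0.03 ± 0.22 (adjusted p = 0.903). The QKI call of Cmpk2 was lost without control replicate 1 (adjusted p = 0.128), control replicate 2 (0.0995), QKI knockdown replicate 1 (0.0646), QKI knockdown replicate 2 (0.0971) or QKI knockdown replicate 3 (0.0691). The RBPMS value of Rsad2 passed the fold threshold without control replicate 2 (1.27) or RBPMS knockdown replicate 2 (1.03).

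Ifit3 belongs to the family of proteins that bind viral RNA ends. Its levels were 1.53, 1.77 and 0.734 CPM in the control libraries, 2.78, 3.22 and 3.81 CPM after RBPMS knockdown, 3.08, 2.76 and 2.54 CPM after RBFOX2 knockdown and 1.36, 1.18 and 1.75 CPM after QKI knockdown. Control replicate 3 was again the lowest library, and the RBPMS and RBFOX2 knockdown libraries did not overlap with the control range. Log2 fold changes were 1.28 ± 0.22 (adjusted p = 8.48e-05), 1.05 ± 0.22 (adjusted p = 0.000537) and 0.09 ± 0.23 (adjusted p = 0.751). Without control replicate 3 the first 2 became 0.99 and 0.76, and without RBFOX2 knockdown replicate 1 the RBFOX2 value was 0.97, all under the fold threshold with adjusted p of at most 0.00375. Ifit2, of the same family, did not follow it: its log2 fold changes were 0.04 ± 0.05 (adjusted p = 0.514), -0.24 ± 0.05 (adjusted p = 0.0009) and -0.54 ± 0.05 (adjusted p = 1.37e-07).

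The remaining effectors moved by less than 1 on the log2 scale in every knockdown against control. Gbp2, a GTPase that attacks the membranes around pathogens, had log2 fold changes of -0.76 ± 0.05 (adjusted p = 7.49e-10), -0.04 ± 0.05 (adjusted p = 0.462) and -0.87 ± 0.05 (adjusted p = 6.49e-11) for RBPMS, RBFOX2 and QKI knockdown. Bst2, or tetherin, which holds budding virus at the cell surface, had -0.58 ± 0.12 (adjusted p = 0.000357), 0.49 ± 0.11 (adjusted p = 0.00126) and 0.33 ± 0.11 (adjusted p = 0.0168), the last of which was lost without control replicate 3 (adjusted p = 0.055) or QKI knockdown replicate 2 (0.142). The secreted glycoprotein gene Lgals3bp, at 234 ± 4.89 CPM (SD, n = 3) in the control libraries, had -0.56 ± 0.07 (adjusted p = 1.39e-06), 0.29 ± 0.07 (adjusted p = 0.00117) and 0.00 ± 0.07 (adjusted p = 0.96). These 3 were among the 8 of 19 effectors tested that were lower after RBPMS knockdown by the adjusted p alone, against 29% of all genes.

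Rtp4, a receptor chaperone that also restrains viral replication, and Ifi35 were highest after RBFOX2 knockdown. Rtp4 was at 5.50, 3.17 and 3.17 CPM after RBFOX2 knockdown and 1.81 to 2.27 CPM in the control libraries, a log2 fold change of 0.96 ± 0.18 (adjusted p = 0.000206) that passed 1 without control replicate 2 (1.04), RBFOX2 knockdown replicate 2 (1.08) or RBFOX2 knockdown replicate 3 (1.08). Ifi35 had 0.83 ± 0.06 (adjusted p = 1.59e-09). Parp10 was the effector with the largest rise after QKI knockdown, at 0.62 ± 0.05 (adjusted p = 5.82e-09). The other effectors (Isg20, Gbp5, Parp12, Ifi27, Ifi44, Xaf1 and Epsti1) had log2 fold changes between -0.48 and 0.41, and Epsti1 did not pass the test in any knockdown, with adjusted p of 0.0994, 0.0791 and 0.0652. Its RBFOX2 value passed without control replicate 2 (adjusted p = 0.0447) or RBFOX2 knockdown replicate 2 (0.0258), and its QKI value without control replicate 2 (0.0359) or QKI knockdown replicate 2 (0.0369).

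**Figure D3:**
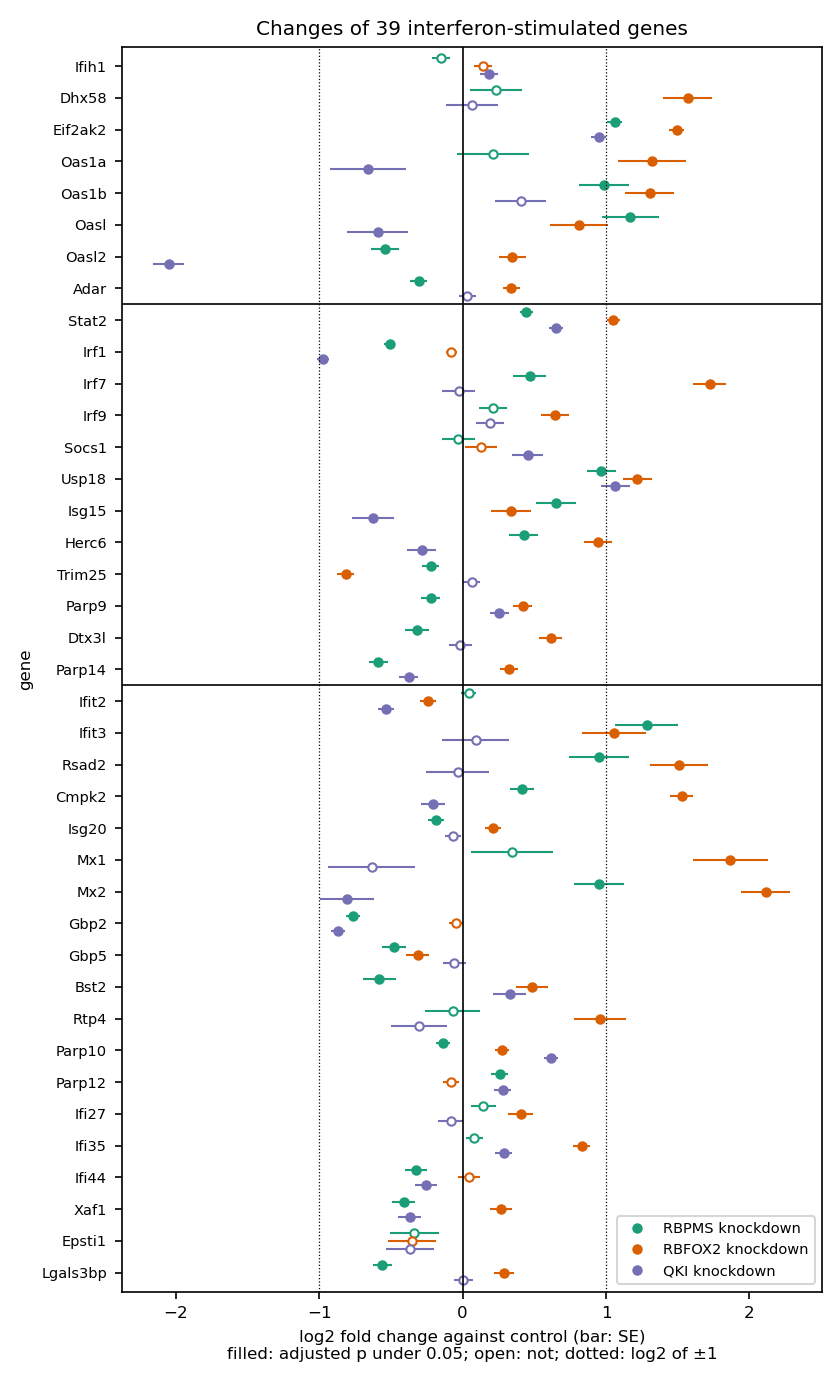
Log2 fold change against control (points, with SE bars) for the 39 members of at least 1 CPM on average in RBPMS, RBFOX2 and QKI knockdown, in blocks of sensors, signalling genes and effectors, with filled points where the adjusted p was under 0.05 and dotted lines at -1 and 1. The RBFOX2 points lie mostly to the right of 0, up to 2.11 for Mx2, whereas RBPMS and QKI points lie on both sides, down to -2.05 for Oasl2 after QKI knockdown.

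The knockdowns were also compared directly, without the control libraries. Between RBFOX2 and RBPMS knockdown, 10 members were higher with RBFOX2 and 0 lower, where 4.41% of all genes were higher and 3.1% lower, and without RBFOX2 knockdown replicate 1 the count was 6. Of the 10, 8 were at 1 CPM or more on average. The log2 differences included 1.52 ± 0.26 for Mx1 (adjusted p = 8.55e-05), 1.34 ± 0.17 for Dhx58 (adjusted p = 4.03e-06), 1.25 ± 0.11 for Irf7 (adjusted p = 6.86e-08) and 1.07 ± 0.12 for Bst2 (adjusted p = 5.79e-07). By role, the 10 members were 4 of 11 sensors, 1 of 12 signalling genes (Irf7) and 5 of 19 effectors tested.

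Between QKI and RBFOX2 knockdown, 14 members were lower with QKI and 0 higher, where 10.6% of all genes were lower and 7.74% higher. Of the 14, 11 were at 1 CPM or more on average. The log2 difference was -2.92 ± 0.18 for Mx2 (adjusted p = 1.95e-10), -2.50 ± 0.28 for Mx1 (adjusted p = 4.11e-07), -2.40 ± 0.11 for Oasl2 (adjusted p = 2.23e-12) and -1.75 ± 0.12 for Irf7 (adjusted p = 4.6e-10). Between QKI and RBPMS knockdown, 6 members were lower with QKI and 0 higher (1 without QKI knockdown replicate 3), where 6.53% of all genes were lower and 5.66% higher. Those above 1 CPM were Oasl (-1.76 ± 0.21, adjusted p = 1.18e-06), Mx2 (-1.76 ± 0.18, adjusted p = 2.32e-07), Oasl2 (-1.51 ± 0.11, adjusted p = 2.44e-09), Isg15 (-1.27 ± 0.14, adjusted p = 6.14e-07) and Ifit3 (-1.19 ± 0.22, adjusted p = 0.00017). The QKI against RBFOX2 and QKI against RBPMS comparisons share the QKI knockdown libraries.

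Promoter windows of 300 bases, from 250 before to 50 after the start of each gene in the RefSeq annotation of the rat assembly GRCr8, were available for 32 of the 43 members. The core of the ISRE was searched as GAAANNGAA on both strands, which reads TTCNNTTTC on the opposite one. It was present in 23 of the 32 windows (71.9%) and in 9.71% of the 33469 windows of all genes. By role it was found in 6 of 7 sensors, 4 of 10 signalling genes and 13 of 15 effectors. The site of STAT dimers, searched as TTCNNNGAA, was in 7 windows (21.9%), against 8.87% of all, and overlapped with an ISRE match in 1 of them, that of Bst2. A match is a run of letters and not evidence of binding, and these members are known interferon targets, so that the share is a property of the list and not of the knockdowns.

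The windows of 4 members that changed and were at 1 CPM or more on average, those with the largest changes among the holders of a match, are printed on the strand of each gene with the ISRE core match in capitals. Positions of the match are counted from the start base as 0.

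Oasl2: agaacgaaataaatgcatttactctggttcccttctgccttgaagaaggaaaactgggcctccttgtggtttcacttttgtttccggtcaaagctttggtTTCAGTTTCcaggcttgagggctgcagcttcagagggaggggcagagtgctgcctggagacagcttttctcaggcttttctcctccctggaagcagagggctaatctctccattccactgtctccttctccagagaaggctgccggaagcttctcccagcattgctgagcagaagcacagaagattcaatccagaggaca

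Irf7: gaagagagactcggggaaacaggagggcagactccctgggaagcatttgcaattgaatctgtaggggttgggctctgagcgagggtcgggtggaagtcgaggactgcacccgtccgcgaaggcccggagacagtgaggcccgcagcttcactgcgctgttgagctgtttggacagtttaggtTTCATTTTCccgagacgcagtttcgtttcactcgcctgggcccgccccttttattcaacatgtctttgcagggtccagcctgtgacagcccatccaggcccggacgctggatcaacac

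Cmpk2: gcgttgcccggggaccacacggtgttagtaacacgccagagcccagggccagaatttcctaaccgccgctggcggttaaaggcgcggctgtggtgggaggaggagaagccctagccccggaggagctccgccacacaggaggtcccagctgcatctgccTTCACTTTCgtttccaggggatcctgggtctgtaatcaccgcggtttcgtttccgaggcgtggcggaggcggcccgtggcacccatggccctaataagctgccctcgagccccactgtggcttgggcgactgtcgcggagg

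Rsad2: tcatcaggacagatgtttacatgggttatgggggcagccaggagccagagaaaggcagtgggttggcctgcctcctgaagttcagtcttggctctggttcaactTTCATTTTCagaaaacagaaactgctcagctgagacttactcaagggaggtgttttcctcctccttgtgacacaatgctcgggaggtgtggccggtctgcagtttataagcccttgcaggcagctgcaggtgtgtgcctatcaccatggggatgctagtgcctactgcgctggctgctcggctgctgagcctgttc

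The Oasl2 window lies at chr12:47383136-47383435 on the minus strand, with its match at -150, and the Irf7 window at chr1:205799974-205800273 on the minus strand, with its match at -68. Those of Cmpk2 and Rsad2 lie at chr6:48802600-48802899 on the plus strand and chr6:48788071-48788370 on the minus strand, with matches at -91 and -146. Irf7, Cmpk2 and Rsad2 rose after RBFOX2 knockdown and were not called changed after QKI knockdown, and Oasl2 fell after QKI knockdown, so genes with a match in this window were found among both kinds. In the windows of Mx1, Oasl and Stat2, which also rose in at least 1 knockdown, the letters did not occur.

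Outside the list, the steps before the interferon-stimulated genes were read from further lists of the pathway. Interferon genes themselves were hardly detected: Ifna1, Ifna4, Ifnb1, Ifng and Ifnk were at 0.15 CPM or lower in every library and could not be tested. Of 6 receptor genes tested, 1 rose after RBPMS knockdown and 1 after RBFOX2 knockdown, where 5.16% and 6.96% of all genes rose. The gene was Il10rb, which encodes a subunit shared by the receptors of interleukin-10 and of interferon lambda. Il10rb was at 13.3, 12.9 and 12.6 CPM in the control libraries, 33.4, 36.0 and 33.6 CPM after RBPMS knockdown, 34.7, 35.5 and 33.5 CPM after RBFOX2 knockdown and 10.1, 10.2 and 10.4 CPM after QKI knockdown. Its log2 fold changes were 1.41 ± 0.04 (adjusted p = 1.09e-13), 1.42 ± 0.04 (adjusted p = 4.62e-14) and -0.33 ± 0.05 (adjusted p = 6.57e-06). Ifnar1 and Ifnar2, the receptor of type I interferon, had log2 fold changes between -0.29 and 0.25 over the 3 knockdowns.

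Among the 13 genes of receptor signalling and its brakes, 0 changed after RBPMS knockdown and 1 rose after RBFOX2 knockdown. Of all genes tested, 5.16% rose and 4.5% fell after RBPMS knockdown, and 6.96% rose after RBFOX2 knockdown. The gene that rose was Socs3, a feedback inhibitor of Janus kinases, with 1.46 ± 0.06 (adjusted p = 1.8e-12) after RBFOX2 knockdown, 0.92 ± 0.06 (adjusted p = 9.81e-10) after RBPMS knockdown and 0.68 ± 0.06 (adjusted p = 2.73e-08) after QKI knockdown.

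Of 19 other genes of RNA and DNA sensing and interferon induction that were tested, 0 changed after RBPMS or RBFOX2 knockdown. In these 2 comparisons 5.16% and 6.96% of all genes rose, and 4.5% and 4.73% fell. After QKI knockdown 1 of the 19 rose and 1 fell, where 8.28% of all genes rose and 9.24% fell. By the adjusted p alone 3 were higher and 10 lower after RBPMS knockdown, 5 higher and 9 lower after RBFOX2 knockdown, and 5 higher and 14 lower after QKI knockdown. Over all genes these shares were 30.4% higher and 29% lower, 30.1% and 30.1%, and 32.9% and 34%. Traf6, a ubiquitin ligase downstream of Toll-like receptors, fell after QKI knockdown (-1.04 ± 0.05, adjusted p = 2.79e-12), and Tlr7, the gene that rose, was at most at 0.387 CPM. Myd88, the adaptor of most Toll-like receptors, had its lowest value after RBFOX2 knockdown (-0.90 ± 0.04, adjusted p = 2.13e-12), as had Sting1, the adaptor of DNA sensing (-0.38 ± 0.05, adjusted p = 3.26e-06). Mavs, the adaptor of the RNA helicases, had -0.42 ± 0.05 (adjusted p = 1.8e-06), -0.09 ± 0.05 (adjusted p = 0.114) and -0.36 ± 0.05 (adjusted p = 5.94e-06).

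**Figure D4:**
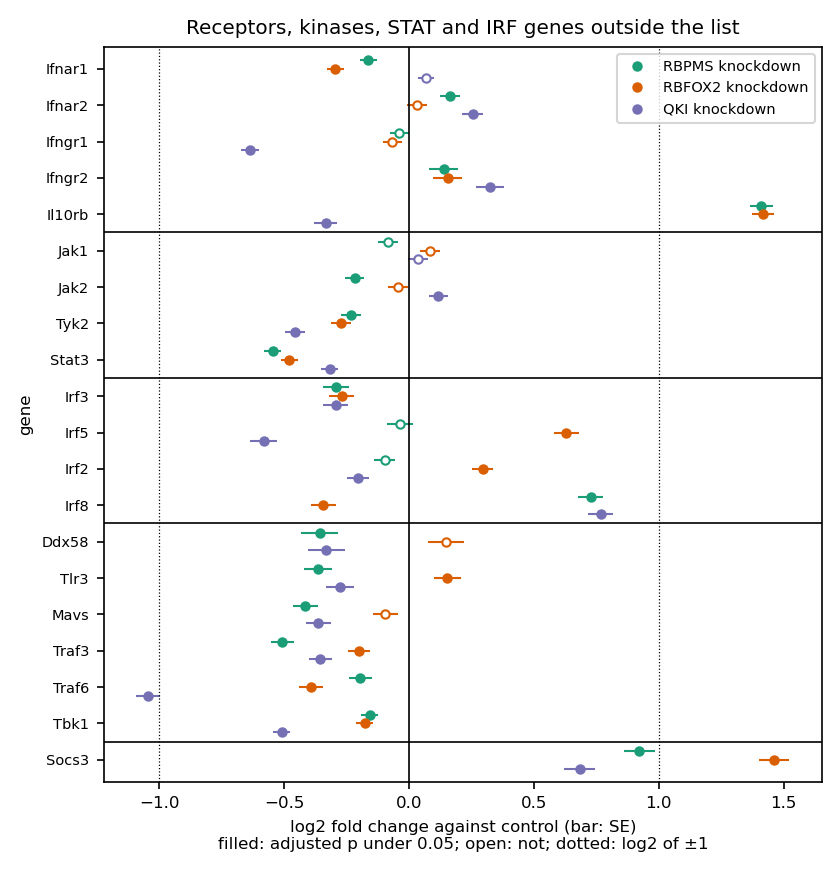
Log2 fold change against control (points, with SE bars) for 20 receptor, kinase, STAT, IRF, sensing and feedback genes outside the list in RBPMS, RBFOX2 and QKI knockdown, with filled points where the adjusted p was under 0.05 and dotted lines at -1 and 1. The points past the dotted lines are Il10rb after RBPMS and RBFOX2 knockdown, Socs3 after RBFOX2 knockdown, and Traf6 after QKI knockdown.

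A further 35 genes known to be induced by interferon were tested, from a list also chosen with earlier results of these data known. Of these, 5 rose and 3 fell after RBPMS knockdown, 5 rose and 0 fell after RBFOX2 knockdown, and 2 rose and 6 fell after QKI knockdown, with medians of -0.10, 0.36 and -0.15 on the log2 scale. Over all genes 5.16% rose and 4.5% fell, 6.96% rose and 4.73% fell, and 8.28% rose and 9.24% fell in the same order, with medians of 0.01, 0.015 and 0.01. Of the 5 that rose after RBPMS and after RBFOX2 knockdown, Gbp1, Cxcl11 and Ccl5 were under 1 CPM on average (0.87, 0.26 and 0.61). The 2 that rose after QKI knockdown were under 1 CPM as well. So were some that fell, among them Ifi44l after RBPMS knockdown (0.89) and Ddx60 after QKI knockdown (0.22). Slfn2, a schlafen gene of quiescence and tRNA protection, was at 35.4 to 38.2 CPM in the control libraries and rose to 86.0 to 93.5 CPM after RBPMS knockdown (1.25 ± 0.04, adjusted p = 3.08e-13) and 98.3 to 105 CPM after RBFOX2 knockdown (1.43 ± 0.04, adjusted p = 3.11e-14), with 68.8 to 72.4 CPM after QKI knockdown (0.93 ± 0.04, adjusted p = 4.59e-12). The chemokine gene Cxcl10 was at 35.1, 39.5 and 22.6 CPM in the control libraries, replicate 3 being again the lowest, and rose after RBPMS knockdown (1.29 ± 0.13, adjusted p = 1.24e-07) and RBFOX2 knockdown (1.16 ± 0.13, adjusted p = 4.1e-07), with 0.46 ± 0.13 (adjusted p = 0.00372) after QKI knockdown. Both genes were above the control range in all 9 knockdown libraries.

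Other members of that list fell. Ifitm3, which blocks entry of enveloped viruses, was at 65.2 to 74.5 CPM in the control libraries, 24.8 to 29.4 CPM after RBPMS knockdown (-1.33 ± 0.08, adjusted p = 5.37e-10), 36.7 to 48.2 CPM after RBFOX2 knockdown (-0.72 ± 0.08, adjusted p = 8.2e-07) and 33.2 to 37.2 CPM after QKI knockdown (-1.01 ± 0.08, adjusted p = 9.1e-09). Nlrc5, the transactivator of class I antigen presentation genes, fell after RBPMS knockdown (-1.21 ± 0.18, adjusted p = 2.09e-05). Samhd1, which destroys deoxynucleotides, and Tor3a fell after QKI knockdown (-1.06 ± 0.07, adjusted p = 7.53e-10, and -1.16 ± 0.06, adjusted p = 3.23e-11). Ifitm3 was thus below the control range in every knockdown library, RBFOX2 knockdown included.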

How the data were processed

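RNA of 12 PAC1 libraries in 4 groups was measured by poly(A)-selected paired-end sequencing. The study's methods describe reads subsampled to an equal depth and aligned with STAR to the assembly mRatBN7.2. The submitters' processing notes give STAR version 2.5.2a, which is not the version of the methods. The authors deposited raw counts per gene symbol with unequal library totals. Whether these counts came from the processing in the methods is not given in the sources used here. A second deposited table holds a normalised signal, which the authors made by a noise filter and quantile normalisation, and it served only as an alternative. The treatment of strand and of reads shared by several genes in counting is not given in the sources used here. Among count values of 1 to 19, 68.1% were even, against 50.9% above 1000, so halved counts were among the alternatives.

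Groups and replicate numbers came from the sample titles, and every column of the tables matched 1 library. Counts were fitted in 1 model over the 12 libraries with edgeR 4.0.16 (R 4.3.3, limma 3.58.1), using TMM scaling, the filterByExpr filter by group and the quasi-likelihood test, two-sided, with Benjamini-Hochberg adjustment over the 18438 genes tested in each of 6 comparisons. The common dispersion was 0.00241, and standard errors are the absolute fold change on the log2 scale over the root of the F value. An exact permutation test of 3 against 3 libraries cannot go below p = 0.1, so single genes were not tested that way. Total counts of 110595399 to 151665474 left counting error small except for members under 1 CPM, for which counts are given. Within every group, libraries differed by more than sampling noise, so none was counted as a duplicate. The pairs of a group that differed most were RBPMS knockdown replicate 2 with replicate 1 and with replicate 3 (chi-square per degree of freedom 57.8 and 45.6). Replicate numbers did not pair the libraries: deviations from group means correlated between -0.34 and 0.25 across 10707 genes, which are not independent replicates.

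Members named with the value in every library were those that changed in at least 1 knockdown and had a mean of at least 1 CPM. Other members are given by range, count or single values, and those described with library values outside this rule (Irf1, Isg15, Oas2, Oas3, Zbp1) were chosen after their values were seen. Pathway genes outside the list were named by the same thresholds, and Ddx58, Mavs, Myd88, Sting1, Ifnar1, Ifnar2 and Tlr7 were added after their values were seen. 1 gene that met these thresholds is not reported here. The members, their roles and the further lists were chosen with earlier results of these data known. Alternatives were RLE size factors, library totals, no filter on low counts, a mean of at least 50 counts, a replicate block, halved counts, the 6 libraries of a comparison alone, DESeq2 1.42.0, the authors' normalised table (log2 of the value plus 1, limma) and leaving out each library. The fit was tested on simulated data with 200 changed genes. Promoters came from RefSeq (GRCr8) and siRNA strands from the study's oligonucleotide list. The 11 members without a promoter entry were Adar, Dhx58, Ifit1, Ifit2, Isg15, Mx2, Oas2, Parp10, Rtp4, Usp18 and Zbp1.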

Additional observations from a re-analysis of the deposited data

Results flagged for a closer look

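Oas2 was called changed in opposite directions against control in a pair of knockdowns, up with RBFOX2 and down with QKI. QKI knockdown replicate 3 held 2 counts, as did control replicate 1. The direct test gave a log2 difference of -6.28 for QKI against RBFOX2 knockdown (adjusted p = 2.95e-06, edgeR). That fitted value depends on the prior count and bounds nothing, because the QKI knockdown libraries held 0, 0 and 2 counts. From the summed counts, 202 in RBFOX2 knockdown and 2 in QKI knockdown, the ratio per unit of depth was 91.9 (95% counting interval 25.1 to 764, Clopper-Pearson, which covers counting error only). That interval treats counts as independent, although 68.1% of the counts from 1 to 19 in the table were even. With all counts halved, the call of Oas2 for QKI knockdown against control was lost (adjusted p = 0.0563, edgeR). It was also lost without control replicate 3, QKI knockdown replicate 1 or QKI knockdown replicate 2 (adjusted p of 0.0648, 0.0602 and 0.0503, edgeR). Control against QKI knockdown gave 24 and 2 counts and a ratio of 11.1 (2.76 to 97).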

How the results depend on the processing

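The direction of every called member against control held under the alternatives that kept all libraries. The count of members changed after RBPMS knockdown was 3, 5 in the authors' normalised table, and 3 to 6 with 1 library left out. After QKI knockdown it was 5, with 2 at a mean of at least 50 counts, 3 with halved counts and 1 to 5 with 1 library left out. After RBFOX2 knockdown it was 14, with 12 to 17 with 1 library left out and 12 to 15 under the rest. RBFOX2 against RBPMS knockdown gave 10 members, or 6 to 11 with 1 library left out. The cause was not tested, beyond fewer genes or samples entering a fit. Rbfox2 after RBPMS knockdown had a log2 fold change of -0.12, which no longer passed with the 6 libraries alone (-0.117) and was -0.152 to -0.0713 with 1 library left out, and its change of -0.149 after QKI knockdown was -0.0634 by library totals. The stricter ISRE core GAAACNGAA was in 12 member promoters, against 23. With the replicate block, although the numbers do not pair the libraries, 3 members changed after QKI knockdown, as Oas3 (adjusted p = 0.0521) and Zbp1 (0.0581) no longer passed; no call moved among the members of at least 1 CPM that changed. By library totals the median of all genes shifted by 0.13 on the log2 scale between QKI and RBPMS knockdown. Members under 1 CPM, the siRNA of each group and the missing untransfected cells are limits of these comparisons.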
